A study of Mus musculus with 8 samples.

Results

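The genes described here encode interleukins, chemokines and their receptors, the signalling proteins through which blood cells are told to move, divide or become active. A gene was included if its symbol begins with Il, Ccl, Cxcl, Ccr or Cxcr followed by a digit, and 9 relatives were left out (Cxcl2, Cxcl12, Ccl3, Ccl4, Il1b, Il7, Il7r, Il5ra and Cxcr4). The rule took in 110 of the 18194 genes that have a probe set naming a single gene. They are 16 CC chemokine ligands, 11 CXC chemokine ligands, 10 CC and 4 CXC chemokine receptors, 31 interleukin ligands, 3 antagonists or binding proteins, 33 interleukin receptors and 2 other genes with an Il symbol. Each gene was read from its brightest probe set by the mean over the 8 arrays. Of the 110 members, 66 stood at 5 or more (log2 intensity) on at least 2 arrays and were tested, among 13136 genes in all. The remaining 44 lay below that floor and are given as measured.

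Chemokines are small secreted proteins, named CC or CXC for the spacing of their first cysteines, that guide leukocytes through G protein-coupled receptors. Most interleukins signal through receptors coupled to JAK kinases and STAT factors, while the IL-1 family, which includes IL-18 and IL-36, signals through MyD88 and NF-kappaB and is restrained by decoy receptors and a receptor antagonist. In bone marrow these systems set the retention and release of neutrophils, monocytes and lymphocytes, and in the embryo the liver is the main organ of blood formation, where blood cells mature beside immature hepatocytes.

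Total RNA from single-cell suspensions was hybridised to Affymetrix mouse expression arrays in 4 groups of 2 arrays. The bone marrow arrays held RNA flushed from femurs and tibias of 3-month-old males, and the fetal liver arrays held RNA of embryos at day 14.5 whose sex was recorded as undetermined. In each tissue 1 group was C57B6/J with the genotype Col18a1+/+ (wild-type) and the other was of the same strain name with the genotype Col18a1-/- (knockout). Col18a1 is the gene of type XVIII collagen, found in basement membranes, and the labels name no cell type to which its loss would be limited. RNA of 2 littermates was pooled for each array, so the p-values measure the spread between pools. The suspensions were not sorted, so fewer cells of a type and less RNA per cell cannot be told apart in any value below.

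The median intensity of an array lay between 40.8 and 42.6, and the correlation over genes between both arrays of a group was 0.995 to 0.998 (genes are no independent replicates). Col18a1 stood at 7.84 and 7.85 in wild-type and at 5.63 and 5.99 in knockout bone marrow, and at 9.06 and 9.18 in wild-type and 8.17 and 8.06 in knockout fetal liver. Signal thus remained in knockout arrays, and it is unknown whether this probe set reads sequence that was deleted, so its level is a limited check of the labels. The marker lists matched the labelled tissues. The mean over 9 hepatocyte markers was 4.65 to 4.95 on bone marrow arrays and 12.2 to 12.4 on fetal liver arrays, while the mean over 10 neutrophil markers was 13.004 to 13.057 and 8.40 to 8.79, and that over 11 B-lineage markers 10.1 to 10.2 and 5.24 to 5.32. The fetal liver pools differed in sex-linked RNA: Xist, which coats and silences an X chromosome in female cells, was at 11.04 and 11.22 in wild-type and at 4.97 and 4.77 in knockout pools, and the Y-linked Eif2s3y at 3.29 and 3.003 against 9.38 and 9.42. Genotype and sex of the embryos therefore cannot be told apart in fetal liver. All marrow came from males, so the wild-type comparison of tissues sets Xist-high liver against male marrow and the knockout comparison does not, and tissue and sex cannot be told apart in wild-type arrays.

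Bone marrow and fetal liver were compared first, within each genotype. All marrow was adult and all liver embryonic, so tissue and age cannot be told apart in either genotype. Across the members the levels of fetal liver were more often lower than higher. Among wild-type arrays 42 of the 66 tested members differed, 10 higher and 32 lower in fetal liver (adjusted p under 0.05, limma), against 65.9% of all genes tested, of which 39.2% were higher and 26.8% lower. Among knockout arrays, which share no array with the former, 39 members differed, 5 higher and 34 lower, against 63.8% of all genes (36.6% higher and 27.1% lower). The members higher in both genotypes were 5, which is 50% of those called in wild-type and 100% of those called in knockout arrays. The members lower in both were 30, or 93.75% and 88.2%. The matching overlap over all genes was not computed, so these percentages cannot be read as a trait of the members. The median difference of the 66 was -0.35 in wild-type and -0.36 in knockout arrays, beside 0.14 and 0.11 over all genes tested. The counts of higher members rested in part on single arrays: the wild-type count was 6 without wild-type marrow replicate 1, and the knockout count was 8 without knockout liver replicate 2.

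The filter bears on these counts. Of the tested members 12 passed the floor only through bone marrow and 2 only through fetal liver, and a gene that passes in 1 tissue alone is likely to differ. Besides Ccr3, Ccr7, Ccr9 and Cxcr5, the 12 included Cxcl9, Il12a, Il18r1, Il4 and Il1f9, and the 2 were Ccl27a and Il1f5. Of the 12, 11 were called lower in fetal liver in each genotype. Both of the 2 were called higher in wild-type arrays and 1 in knockout arrays. The calls and separations of these members are thus partly set by the filter. Among the 52 members that passed in both tissues, 8 were higher and 21 lower in wild-type fetal liver, with a median difference of -0.17, beside 64.4% of the 11712 genes that passed in both (37.2% higher and 27.2% lower, median 0.11). In knockout arrays 4 of the 52 were higher and 23 lower, with a median of -0.28, beside 62.0% (34.5% higher and 27.5% lower, median 0.08). With no filter, 51 of all 110 members differed in wild-type arrays, 17 higher and 34 lower, against 49.7% of the 18194 genes (30.5% higher and 19.2% lower). In knockout arrays 44 differed, 8 higher and 36 lower, against 47.6% (28.0% higher and 19.6% lower). The median difference over all 110 members was -0.03 in wild-type and -0.05 in knockout arrays. The 2 groups of a tissue comparison did not overlap for 52 of the 66 tested members in wild-type arrays, 15 higher and 37 lower (84.8% of all genes, 50.9% higher and 33.8% lower), and for 52 in knockout arrays, 12 higher and 40 lower (82.4% of all genes, 47.8% higher and 34.5% lower).

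**Figure D1:**
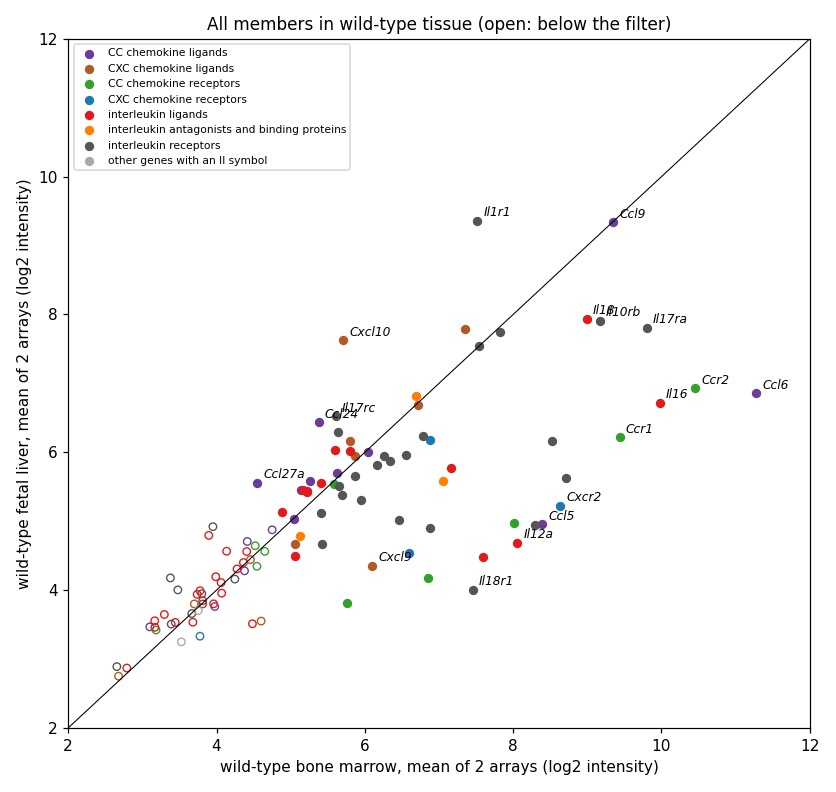
Mean log2 intensity of each of the 110 members on the 2 wild-type bone marrow arrays (horizontal axis) and the 2 wild-type fetal liver arrays (vertical axis), with the line of equal levels, filled points for the 66 tested members and open points for the 44 below the floor. Ccl6, Ccr2, Il16 and Ccr1 lie far below the line, while Il1r1 and Cxcl10 lie above it.

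Among the CC chemokine ligands, 11 of 16 were tested, and in wild-type arrays 3 were higher and 2 lower in fetal liver. These are 27.3% and 18.2% of the 11, beside 39.2% and 26.8% of all genes tested. Ccl6, a CC chemokine of myeloid cells, had the largest difference of all members. It stood at 11.33 and 11.23 in wild-type and 11.52 and 11.46 in knockout bone marrow, and at 6.82 and 6.89 in wild-type and 6.93 and 6.66 in knockout fetal liver. All 4 marrow arrays lay above all 4 liver arrays, and the level was 21.5-fold lower in wild-type fetal liver (-4.43 ± 0.11 SE, adjusted p = 6.6e-09, limma) and 25.9-fold lower in knockout (-4.69 ± 0.11). Ccl5, a ligand of Ccr1 and Ccr3 made by T and NK cells, stood at 8.34 and 8.44 in wild-type and 8.59 and 8.60 in knockout marrow against 4.75 and 5.16 and 5.45 and 5.45 in fetal liver. It too separated the tissues completely, with differences of -3.43 ± 0.13 in wild-type (adjusted p = 7.5e-08, limma) and -3.15 ± 0.13 in knockout arrays.

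Ccl9, which lies directly between Ccl5 and Ccl6 on chromosome 11 and encodes a myeloid chemokine of the same branch, did not share this pattern. Its levels were 9.50 and 9.20 in wild-type marrow, 9.46 and 9.47 in knockout marrow, 9.27 and 9.40 in wild-type liver and 8.99 and 9.32 in knockout liver. The tissues overlapped in wild-type arrays, while both knockout liver arrays lay below the knockout marrow arrays, and the differences of -0.01 ± 0.14 and -0.31 ± 0.14 missed the threshold (adjusted p = 0.95 and 0.075, limma). A dimmer Ccl9 probe set gave -0.86 and -1.38, so the size of the difference depends on the probe set. The sequences of Ccl5, Ccl6 and Ccl9 are related, and how far a probe set reads a relative was not tested.

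Of the CC ligands higher in fetal liver, Ccl24, an eosinophil attractant also known as eotaxin-2, stood at 5.38 and 5.37 in wild-type marrow and at 6.20 and 6.67 in wild-type liver, a difference of 1.06 ± 0.17 (adjusted p = 0.00051, limma). In knockout arrays the difference was 1.20 ± 0.17, and the tissues did not overlap in either genotype. Ccl27a, a ligand of Ccr10, differed by 1.01 ± 0.16 in wild-type (adjusted p = 0.00058, limma) and 0.60 ± 0.16 in knockout arrays (adjusted p = 0.011, limma). It passed the floor only through fetal liver, so its call is partly set by the filter. Its only probe set is of the _x_at kind, which may read related sequences, and its call in knockout arrays was lost without knockout marrow replicate 1 or knockout liver replicate 2 (adjusted p = 0.077 and 0.073, limma; 0.0070 to 0.077 over 17 alternatives). Ccl22, a ligand of Ccr4, was higher in wild-type liver by 0.31 ± 0.10 (adjusted p = 0.028, limma) and differed by -0.02 in knockout arrays. The wild-type call of Ccl22 was lost without either wild-type marrow array or wild-type liver replicate 1 (adjusted p = 0.088 to 0.14, limma). The other 5 tested CC ligands besides Ccl9, which were Ccl2, Ccl8, Ccl17, Ccl25 and Ccl28, differed by -0.04 to 0.32 in wild-type arrays and did not pass in either genotype.

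The CXC ligands Cxcl9 and Cxcl10 encode interferon-induced ligands of the same receptor, Cxcr3, and lie close together on chromosome 5 with 1 gene between them, yet they differed in opposite directions. Cxcl10 stood at 5.63 and 5.79 in wild-type and 5.97 and 5.82 in knockout marrow, and at 7.72 and 7.53 in wild-type and 7.53 and 7.53 in knockout liver. Every liver array lay above every marrow array, with differences of 1.91 ± 0.11 in wild-type (3.77-fold, adjusted p = 7.5e-07, limma) and 1.63 ± 0.11 in knockout arrays. Cxcl9, singled out after its values were seen, stood at 5.96 and 6.23 and 6.22 and 6.30 in the 2 marrow groups and at 4.21 and 4.49 and 4.18 and 4.45 in the 2 liver groups. Cxcl9 passed the floor only through bone marrow, so its call is partly set by the filter. Every liver array lay below every marrow array, with differences of -1.74 ± 0.14 in wild-type (adjusted p = 7.8e-06, limma) and -1.94 ± 0.14 in knockout arrays. Cxcr3 itself, the receptor of both, was lower in fetal liver by 0.69 ± 0.10 in wild-type (6.89 and 6.86 against 6.27 and 6.09, adjusted p = 0.00025, limma).

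The promoters of these 2 pairs of neighbours are shown because genes so close on the chromosome had such unequal tissue differences. Each runs 5′ to 3′ on the strand of its gene, from 250 bases before to 50 bases after the start of transcription, and all 4 genes lie on the minus strand. They come from RefSeq (assembly GRCm38.p6), at chr11:83578587-83578886 for Ccl9, chr11:83593038-83593337 for Ccl6, chr5:92328030-92328329 for Cxcl9 and chr5:92348840-92349139 for Cxcl10. Capitals mark every match to the motifs named after the sequences.
Ccl9: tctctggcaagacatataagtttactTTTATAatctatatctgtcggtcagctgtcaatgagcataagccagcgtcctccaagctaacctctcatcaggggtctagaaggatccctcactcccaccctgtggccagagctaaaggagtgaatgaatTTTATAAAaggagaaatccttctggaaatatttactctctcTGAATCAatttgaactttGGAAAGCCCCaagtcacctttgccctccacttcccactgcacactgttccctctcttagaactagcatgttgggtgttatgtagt
Ccl6: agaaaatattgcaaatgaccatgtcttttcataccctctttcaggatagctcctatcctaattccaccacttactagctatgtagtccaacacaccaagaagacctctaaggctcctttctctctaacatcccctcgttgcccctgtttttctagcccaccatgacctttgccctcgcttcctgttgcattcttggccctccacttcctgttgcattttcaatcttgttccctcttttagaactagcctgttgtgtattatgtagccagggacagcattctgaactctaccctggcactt
Cxcl9: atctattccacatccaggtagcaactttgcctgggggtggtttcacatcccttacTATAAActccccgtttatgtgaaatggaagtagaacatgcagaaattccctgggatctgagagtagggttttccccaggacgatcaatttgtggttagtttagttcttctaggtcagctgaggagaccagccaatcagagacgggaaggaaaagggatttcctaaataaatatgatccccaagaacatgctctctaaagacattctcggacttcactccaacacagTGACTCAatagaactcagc
Cxcl10: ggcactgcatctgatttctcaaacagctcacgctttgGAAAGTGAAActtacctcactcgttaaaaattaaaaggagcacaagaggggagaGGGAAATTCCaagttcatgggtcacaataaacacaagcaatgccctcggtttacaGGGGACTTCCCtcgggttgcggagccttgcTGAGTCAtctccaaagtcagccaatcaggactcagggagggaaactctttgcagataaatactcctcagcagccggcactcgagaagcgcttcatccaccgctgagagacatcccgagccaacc

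Both strands were searched for 7 motifs: the AP-1 site TGANTCA, the gamma-activated site TTCNNNGAA, the C/EBP palindrome TTGCNNAA, the PU.1 core GAGGAA, the TATA box TATAAA, the core of the interferon-stimulated response element, and the kappaB consensus. The Ccl9 promoter held an AP-1 match 53 bases and a kappaB match 35 bases before the start, and 3 TATA matches, 2 of which overlap on opposite strands. The Ccl6 window held none of the 7. The Cxcl9 window held a TATA match 195 bases before the start and an AP-1 match from base 32 of the transcript, while the Cxcl10 window held an AP-1 match, kappaB matches 159 bases and, overlapping one another, 104 and 103 bases before the start, and the response element core 213 bases before it. Among 32851 promoters of this length, AP-1 was found in 7.81%, the gamma-activated site in 8.30%, the C/EBP palindrome in 10.8%, the PU.1 core in 28.3%, kappaB in 8.46%, the TATA box in 13.6% and the response element core in 3.44%. Among the 100 promoters listed for 83 of the 110 members the shares were 21%, 13%, 15%, 31%, 17%, 19% and 4%. These matches are letters found in a window, and no binding was measured.

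Cxcl1, a neutrophil attractant and ligand of Cxcr2, was higher in wild-type fetal liver by 0.44 ± 0.11 (7.26 and 7.44 against 7.76 and 7.82, adjusted p = 0.0079, limma) and by 0.19 ± 0.11 in knockout arrays, which missed the threshold. The call was lost without wild-type marrow replicate 1 (adjusted p = 0.068, limma; 0.0011 to 0.068 over 18 alternatives). Its brightest probe set is of the _x_at kind, and 2 dimmer ones gave 0.60 and 0.56 in wild-type arrays. Cxcl16, the membrane-bound ligand of Cxcr6, stood between 6.59 and 6.95 on all 8 arrays and differed by -0.03 ± 0.10 between the wild-type tissues.

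Of the 14 chemokine receptors 9 were tested, and 8 of these were lower in fetal liver in both genotypes and 0 higher. The other was Ccr6, a receptor of mature lymphocytes and dendritic cells, with differences of -0.04 and -0.26. Of the 8, Ccr3, Ccr7, Ccr9 and Cxcr5 passed the floor only through bone marrow, while Ccr1, Ccr2, Cxcr2 and Cxcr3 passed in both tissues, so the count over tested receptors is partly set by the filter. The 5 receptors below the floor, Ccr4, Ccr8, Ccr10, Ccr1l1 and Cxcr6, differed by -0.45 to 0.24 in wild-type arrays, and with no filter Cxcr6 passed there. The lower share over all genes with no filter was 19.2% in wild-type and 19.6% in knockout arrays, where 9 and 8 of the 14 receptors were lower. Ccr2, the receptor by which inflammatory monocytes leave the marrow, stood at 10.65 and 10.26 in wild-type and 10.64 and 10.56 in knockout marrow, and at 6.73 and 7.12 in wild-type and 6.80 and 7.18 in knockout liver. The marrow arrays all lay above the liver arrays, by 3.53 ± 0.18 in wild-type (11.5-fold, adjusted p = 4.4e-07, limma) and 3.61 ± 0.18 in knockout. Ccr1, a receptor of Ccl5 and Ccl9 on monocytes and neutrophils, stood at 9.38 and 9.49 in wild-type marrow against 6.31 and 6.13 in wild-type liver, and differed by -3.22 ± 0.19 and -3.81 ± 0.19 in the 2 genotypes. Cxcr2, the receptor through which neutrophils are mobilised, stood at 8.54 and 8.73 against 5.43 and 5.01, and differed by -3.41 ± 0.23 in wild-type (adjusted p = 2.6e-06, limma) and -3.03 ± 0.23 in knockout arrays.

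Ccr9, Ccr7 and Cxcr5, receptors of lymphocytes, were also lower in fetal liver. These and Ccr3 passed the floor only through bone marrow, so their calls are partly set by the filter. Ccr6, which passed in both tissues, differed by -0.04 in wild-type arrays and was not called. Ccr9, which guides lymphocytes to thymus and gut, differed by -3.03 ± 0.26 (8.10 and 7.92 against 4.57 and 5.38), Ccr7, the lymph node homing receptor, by -2.68 ± 0.15 (7.04 and 6.67 against 4.28 and 4.08), and Cxcr5, which guides B cells to follicles, by -2.06 ± 0.16 (6.75 and 6.45 against 4.47 and 4.61) in wild-type arrays. The brightest probe set of Ccr9 is of the _x_at kind, and the next 2 gave -2.36 and -1.31. Ccr3, the eosinophil receptor of Ccl24 and Ccl5, differed by -1.94 ± 0.29 in wild-type (5.82 and 5.69 against 4.25 and 3.38, adjusted p = 0.00036, limma) and -2.93 ± 0.29 in knockout arrays. Markers of these cells moved with the receptors: 10 of 10 neutrophil, 11 of 11 B-lineage, 7 of 11 monocyte and macrophage, and 9 of 9 mast cell, basophil and eosinophil markers were lower in wild-type fetal liver, with median differences of -4.86, -5.20, -2.03 and -2.20. Among the monocyte and macrophage markers 2 were higher, Marco by 4.33 and Clec4f, a marker of liver macrophages, by 0.92. Of 10 tested T and NK cell markers 6 were lower and 1 was higher (Cd8a, by 0.28), with a median of -1.17, and the T cell genes Cd3e and Cd4 did not pass (-0.17 and -0.23). Their part in the receptor differences was not tested.

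**Figure D2:**
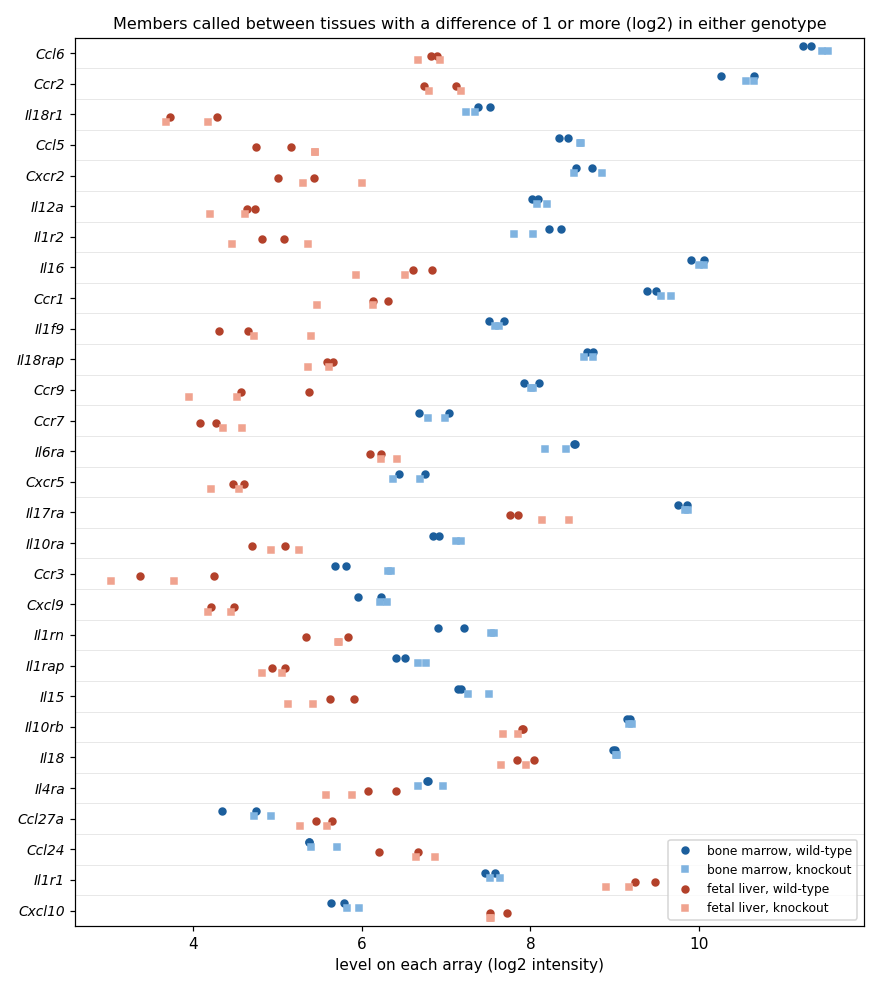
Log2 intensity on each of the 8 arrays for the 29 members called between the tissues with a difference of at least 1 in either genotype, in the order of the wild-type difference, with circles for wild-type and squares for knockout arrays. The bone marrow points lie to the right of the fetal liver points for 25 members and to the left for Ccl27a, Ccl24, Il1r1 and Cxcl10.

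Of the 31 interleukin ligands only 12 were tested, and 2 were higher and 6 lower in wild-type fetal liver. These are 16.7% and 50% of the 12, beside 39.2% and 26.8% of all genes tested. Il16, a T cell attractant unrelated in sequence to the chemokines, stood at 10.05 and 9.91 in wild-type and 10.06 and 9.996 in knockout marrow, and at 6.83 and 6.61 in wild-type and 5.94 and 6.51 in knockout liver. Marrow lay above liver on every array, by 3.26 ± 0.17 in wild-type (9.58-fold, adjusted p = 5.6e-07, limma) and 3.80 ± 0.17 in knockout. A second Il16 probe set gave -2.81, and a still dimmer one, at a mean of 5.73, gave 0.13. Il12a, the p35 chain of interleukin-12 and interleukin-35, stood at 8.02 and 8.09 against 4.64 and 4.74 and differed by -3.37 ± 0.14 in wild-type (adjusted p = 1.1e-07, limma) and -3.73 ± 0.14 in knockout arrays. Il12b, the partner chain of interleukin-12, lay below the floor at 3.62 to 4.22 on all 8 arrays.

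Il18, an IL-1 family cytokine that primes interferon gamma production, was lower in fetal liver by 1.06 ± 0.12 (9.01 and 8.98 against 7.84 and 8.04, adjusted p = 5.9e-05, limma), and Il15, the growth factor of NK cells, by 1.39 ± 0.14 (7.18 and 7.14 against 5.63 and 5.91, adjusted p = 3.3e-05, limma). Il4, the cytokine of type 2 responses, differed by -0.56 ± 0.11 in wild-type (5.09 and 5.02 against 4.61 and 4.38) and -0.31 ± 0.11 in knockout arrays. In these 3 genes the tissues did not overlap in either genotype. Of the ligands called higher, Il20, of the IL-10 family, differed by 0.44 ± 0.14 in wild-type (adjusted p = 0.022, limma) and by -0.02 in knockout arrays, and Il1f5, the IL-36 receptor antagonist, by 0.26 ± 0.10 (adjusted p = 0.045, limma) and 0.13. The Il20 call was lost without wild-type replicate 1 of either tissue (adjusted p = 0.18 without that of marrow and 0.097 without that of liver, limma), and the Il1f5 call in 9 of 16 alternatives (adjusted p = 0.022 to 0.24, limma), among them without either wild-type marrow array, either knockout marrow array or wild-type liver replicate 1 (0.058 to 0.24).

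The IL-1 family genes of chromosome 2 behaved one by one rather than as a block. Il1f9, also named IL-36 gamma, stood at 7.51 and 7.69 in wild-type marrow and at 4.30 and 4.66 in wild-type liver, a difference of -3.12 ± 0.21 (8.68-fold, adjusted p = 2.2e-06, limma), and differed by -2.54 ± 0.21 in knockout arrays. Il1rn, the receptor antagonist that blocks IL-1 signalling, was lower in fetal liver by 1.47 ± 0.17 (6.90 and 7.21 against 5.84 and 5.34, adjusted p = 6.2e-05, limma). Il1f10, also named IL-38, lies between them and differed by 0.15 ± 0.12 and 0.02 ± 0.12, which missed the threshold. The other 2 antagonists or binding proteins, Il18bp, which neutralises IL-18, and Il22ra2, a soluble receptor for IL-22, differed by 0.13 ± 0.14 and -0.35 ± 0.15 in wild-type arrays, neither past the threshold, although Il22ra2 was lower by 0.45 ± 0.15 in knockout fetal liver (adjusted p = 0.029, limma). The 4 tested ligands called in neither genotype were Il1a, Il9, Il17b and Il1f10, with wild-type differences of 0.15 to 0.28.

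Of the 33 interleukin receptors 24 were tested, and 3 were higher and 13 lower in wild-type fetal liver. Of the 24, 66.7% were called and 54.2% were lower, beside 65.9% and 26.8% of all genes tested. The share of all genes tested that were higher was 39.2%. The share of receptors called was thus close to that of all genes, while the calls were more often lower. On chromosome 1 receptors of the IL-1 family lie in a row. Of the 5 members there, only Il1r1, the signalling receptor for IL-1, was higher in fetal liver. Its neighbour Il1rl2, named after its values were seen, differed by -0.31 in wild-type and -0.40 in knockout arrays. Il1r1 stood at 7.46 and 7.58 in wild-type and 7.64 and 7.52 in knockout marrow, and at 9.48 and 9.24 in wild-type and 8.90 and 9.17 in knockout liver. All liver arrays lay above all marrow arrays, by 1.84 ± 0.13 in wild-type (3.59-fold, adjusted p = 2.7e-06, limma) and 1.46 ± 0.13 in knockout. Il1r2, the decoy receptor that binds IL-1 without signalling and the gene next to it, stood at 8.22 and 8.36 in wild-type marrow against 5.08 and 4.82 in wild-type liver. It was lower in fetal liver by 3.35 ± 0.25 in wild-type (10.2-fold, adjusted p = 4.4e-06, limma) and 3.00 ± 0.25 in knockout arrays, with no overlap.

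Both chains of the IL-18 receptor, further along the same stretch, were lower in fetal liver. Il18r1 stood at 7.38 and 7.52 against 3.73 and 4.29 in wild-type arrays and differed by -3.45 ± 0.21 (adjusted p = 1.1e-06, limma) and -3.35 ± 0.21. Il18rap stood at 8.67 and 8.74 against 5.59 and 5.66 and differed by -3.08 ± 0.11 (adjusted p = 4.9e-08, limma) and -3.20 ± 0.11. Il1rap, the accessory chain that IL-1 and IL-36 receptors share, lies on chromosome 16 and differed by -1.44 ± 0.11 (6.51 and 6.40 against 4.94 and 5.09, adjusted p = 5.8e-06, limma). A dimmer Il1rap probe set, at a mean of 5.08, gave 0.54, so its direction depends on the probe set. The endothelial list, whose cells express Il1r1, was higher in wild-type fetal liver for 7 of 9 tested markers and lower for 2, among them Pecam1 (-0.82). Its mean levels were 5.48 to 6.09 on marrow and 7.24 to 7.53 on liver arrays. The hepatocyte list was higher for 9 of 9 markers, and the stromal and bone list was higher for 6 and lower for 2 of 11. Their part in the Il1r1 difference was not tested.

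**Figure D3:**
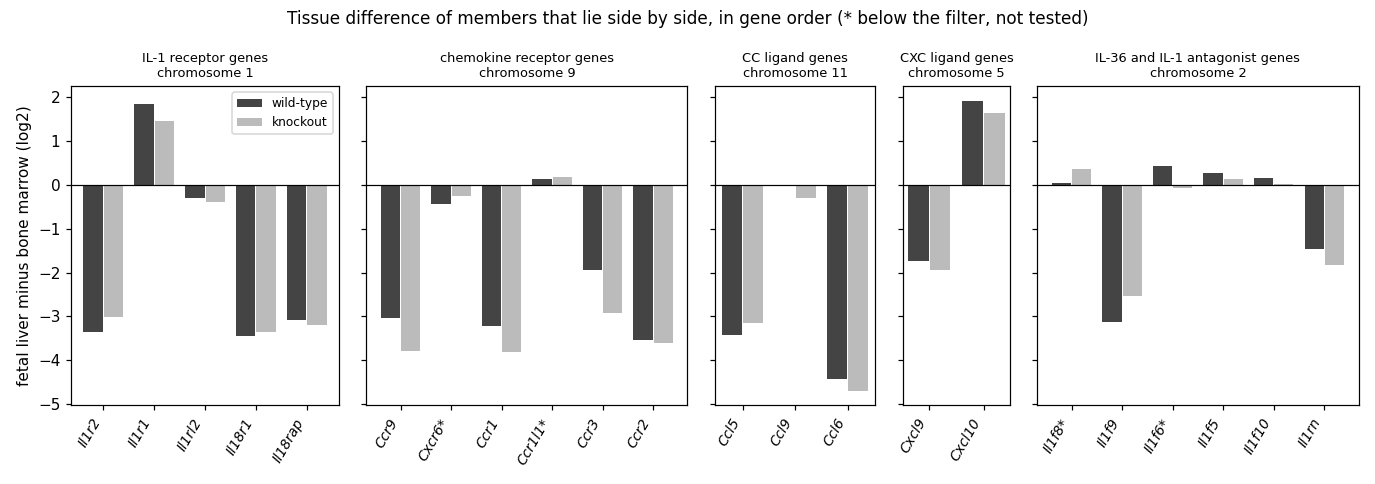
Fetal liver minus bone marrow difference (log2) in wild-type (dark bars) and knockout arrays (light bars) of members that lie side by side, in gene order within 5 chromosome stretches; an asterisk marks members below the floor. Il1r1 and Cxcl10 are the tall bars above 0, beside Il1r2 and Cxcl9 below it, and the bar of Ccl9 is near 0 between those of Ccl5 and Ccl6.

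The plotted stretches belong to 17 neighbourhoods, in which 54 of the 108 members with a RefSeq position lie with at most 2 other genes between one and the next. On chromosome 9 the tested receptors Ccr9, Ccr1, Ccr3 and Ccr2 were all lower in fetal liver, while Cxcr6 and Ccr1l1, which lie among them, were below the floor with wild-type means of 3.78 and 4.52 in marrow and 3.33 and 4.64 in liver. Il17rc and Il17re are next to each other on chromosome 6: Il17rc, a receptor chain for IL-17A and IL-17F, was higher in fetal liver by 0.91 ± 0.10 (5.61 and 5.61 against 6.61 and 6.43, adjusted p = 4.2e-05, limma), and Il17re, named after its values were seen, differed by -0.07 ± 0.10.

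Il17ra, the chain with which Il17rc pairs, differed in the opposite direction. It stood at 9.75 and 9.86 in wild-type marrow and 7.85 and 7.76 in wild-type liver, a difference of -2.00 ± 0.12 (adjusted p = 1.0e-06, limma), and of -1.55 ± 0.12 in knockout arrays. Il10rb, the chain shared by the receptors of the IL-10 family, was lower in fetal liver by 1.25 ± 0.09 (9.15 and 9.18 against 7.92 and 7.91, adjusted p = 4.5e-06, limma). Il6ra, the IL-6 binding chain, was lower by 2.36 ± 0.12 (8.53 and 8.51 against 6.23 and 6.10, adjusted p = 3.3e-07, limma) on its brightest probe set and by 0.29 on a dimmer one. Its signalling partner Il6st, or gp130, chosen after its values were seen, stood at 7.61 and 7.48 in wild-type marrow and 7.36 and 7.72 in wild-type liver, where the groups overlapped. A dimmer Il6st probe set, at a mean of 6.51, gave -0.63 in wild-type and -0.05 in knockout arrays, so the difference depends on the probe set. With Il6st, the 5 tested receptors called in neither genotype were Il2ra, Il15ra, Il17re and Il27ra, with wild-type differences from -0.47 to -0.00. A dimmer Il2ra probe set, at a mean of 4.97, gave -1.48 in wild-type and -2.49 in knockout arrays.

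Il4ra, the chain that binds IL-4, was lower in fetal liver by 0.54 ± 0.15 in wild-type (6.79 and 6.78 against 6.40 and 6.07, adjusted p = 0.012, limma) and 1.09 ± 0.15 in knockout arrays, but a dimmer probe set gave 0.20 and 0.17. The X-linked Il13ra1, with which Il4ra pairs, was higher in wild-type fetal liver by 0.66 ± 0.14 (5.84 and 5.45 against 6.28 and 6.32, adjusted p = 0.0024, limma) and differed by 0.29 ± 0.14 in knockout arrays, which missed the threshold. Sex-linked RNA differs between the tissues in the first of these comparisons and not in the second. As a mean over its 5 probe sets the wild-type difference of Il13ra1 was 0.18 (adjusted p = 0.13, limma). Il13ra2, the decoy for IL-13, also X-linked, was lower in fetal liver by 0.76 ± 0.15. In wild-type arrays 16 of the 42 called members had another probe set with a mean of 5 or more, and all of these had the same sign for 13 of them; the exceptions were Il16, Il1rap and Il4ra.

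Knockout and wild-type arrays were then compared within each tissue, to ask what the loss of Col18a1 did to these genes. In bone marrow 0 of the 66 tested members differed (adjusted p under 0.05, limma), beside 54 of all 13136 genes (0.411%, of which 0.0457% higher and 0.365% lower). At an unadjusted p under 0.05, 3 members were higher and 1 lower, beside 6.74% of all genes (2.88% higher and 3.87% lower). The groups did not overlap for 26 of the 66 members, 19 higher and 7 lower in knockout, beside 43.1% of all genes (23.8% higher and 19.3% lower). The median difference was 0.05, beside 0.01 over all genes tested. The 95% intervals reached 0.21 to 0.66 to either side of the estimate, and for 65 of the 66 members the whole interval lay within 1 log2 unit, which is a 2-fold change. Ccr3 was the exception, with an interval of -0.09 to 1.24.

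The smallest p-values in bone marrow belonged to IL-1 and IL-13 antagonists. Il13ra2 stood at 5.55 and 5.30 in wild-type and 4.80 and 5.10 in knockout marrow, a difference of -0.47 ± 0.15 (adjusted p = 0.51, limma). Il1rn stood at 6.90 and 7.21 in wild-type and 7.53 and 7.57 in knockout marrow, a difference of 0.49 ± 0.17 (adjusted p = 0.58, limma). The groups did not overlap for either gene, and neither passed the threshold in any of the alternatives run. Il1f10 and Il1rap followed with differences of 0.29 ± 0.12 and 0.26 ± 0.11 (adjusted p = 0.72 and 0.74, limma). Ccl17, a ligand of Ccr4, had a difference of -0.13 that turned to 0.01 without wild-type marrow replicate 2.

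Ccr3 had the largest positive difference in bone marrow. It stood at 5.82 and 5.69 in wild-type and 6.35 and 6.31 in knockout marrow, with no overlap, and the difference of 0.58 ± 0.29 missed the threshold (adjusted p = 0.81, limma). A positive difference in marrow was found for 7140 of the 13136 genes tested and for 45 of the 66 tested members. Among these were all 6 tested CC chemokine receptors, from 0.01 for Ccr9 to 0.58, and 0 of the 6 passed. The mast cell, basophil and eosinophil list moved alongside: 9 of 9 tested markers had a positive difference in marrow, with a median of 0.18, list means of 8.36 and 8.35 in wild-type and 8.51 and 8.47 in knockout, and 0 called. Its part in the Ccr3 difference was not tested.

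In fetal liver 0 of the 66 tested members differed between the genotypes (adjusted p under 0.05, limma), beside 42 of all genes (0.320%, of which 0.122% higher and 0.198% lower). At an unadjusted p under 0.05, 4 members were higher and 9 lower in knockout, beside 22.0% of all genes (7.89% higher and 14.1% lower). The groups did not overlap for 27 members, 12 higher and 15 lower, beside 50.1% of all genes (19.9% higher and 30.2% lower), and the median difference was -0.06, beside -0.03 over all genes. For 63 of the 66 the 95% interval lay within 1 log2 unit, the others being Ccr3, Ccr9 and Il1f9. The median SD of tested members was 0.14 in wild-type and 0.17 in knockout fetal liver, against 0.09 and 0.08 in bone marrow, and the fit gives all groups 1 spread.

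Il17ra came nearest to the threshold. It stood at 7.85 and 7.76 in wild-type and at 8.46 and 8.14 in knockout fetal liver, with no overlap and a difference of 0.50 ± 0.12 (adjusted p = 0.0996, limma). It passed with a trend and robust variance model (adjusted p = 0.039, limma) and without knockout liver replicate 2 (adjusted p = 0.024, limma; 0.024 to 0.36 over 19 alternatives). A dimmer Il17ra probe set, at a mean of 6.91, gave -0.21, so the 2 probe sets had opposite signs. Ccl5 was next, at 4.75 and 5.16 in wild-type and 5.45 and 5.45 in knockout, a difference of 0.49 ± 0.13 (adjusted p = 0.11, limma).

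Among the members with a negative difference, Il13ra1 stood at 6.28 and 6.32 in wild-type and 5.73 and 5.90 in knockout fetal liver (-0.48 ± 0.14, adjusted p = 0.11, limma), and 3 of its 4 other probe sets were also negative, at -0.41, -0.39 and -0.24. Il15 stood at 5.63 and 5.91 in wild-type and 5.13 and 5.43 in knockout (-0.49 ± 0.14, adjusted p = 0.12, limma), on its only probe set. For both genes the groups did not overlap. Ccr9 had the largest negative difference, at 4.57 and 5.38 against 3.96 and 4.52 (-0.74 ± 0.26, adjusted p = 0.16, limma), and its next 2 probe sets gave 0.22 and 0.40, again with the opposite sign. Il16 and Il4ra, with differences of -0.50 ± 0.17 and -0.51 ± 0.15 (adjusted p = 0.16 and 0.13, limma), had second probe sets at 0.05 and -0.07.

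Knockout liver replicate 2 weighed on the fetal liver count. Without it 8 members were called, 3 higher (Ccl28, Il17ra and Il1f9) and 5 lower (Ccl22, Ccr1, Cxcl13, Il12a and Il16), together with 1011 of all genes, and the remaining knockout pool then stands alone and is assumed to vary like the other groups. Without any other single array the count was 0. Il1f9, for instance, stood at 4.30 and 4.66 in wild-type and at 5.40 and 4.72 in knockout liver, so its difference of 0.58 ± 0.21 (adjusted p = 0.16, limma) came mainly from knockout replicate 1.

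**Figure D4:**
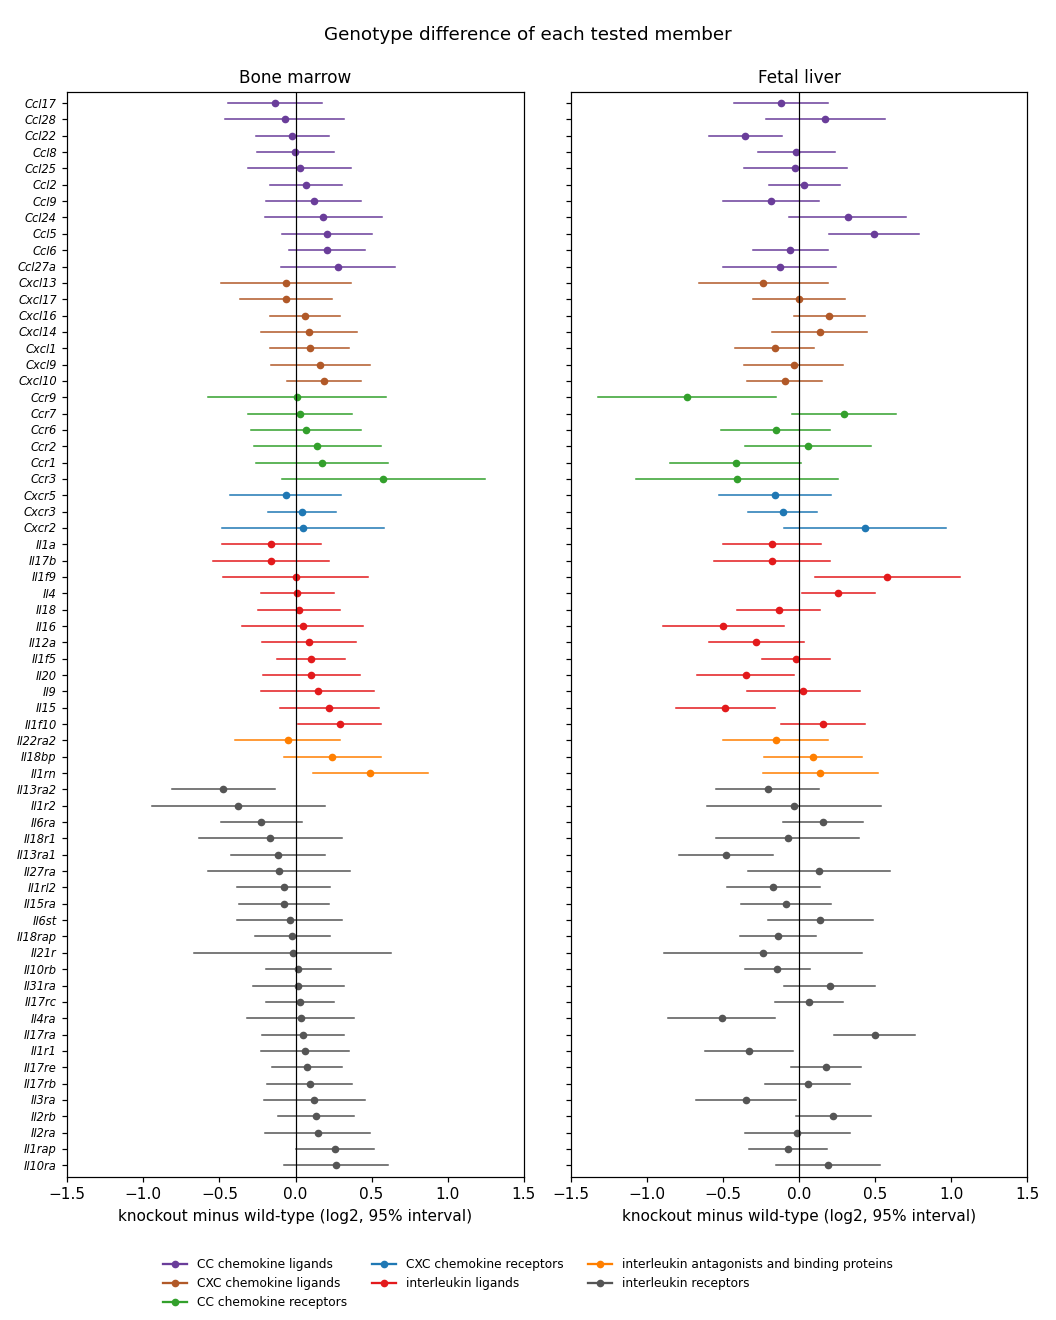
Knockout minus wild-type difference (log2, point) with its 95% interval from the fit (line) for the 66 tested members in bone marrow (left) and fetal liver (right), coloured by role and ordered by the bone marrow difference within each role. The differences run from -0.47 to 0.58 in bone marrow and from -0.74 to 0.58 in fetal liver, and 0 members passed the adjusted threshold in either tissue.

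An interaction term asked whether the genotype differences of marrow and liver were unequal. It passed for 0 of the 66 members (limma), beside 12 of all genes (0.0914%, of which 0.0685% positive and 0.0228% negative), and at an unadjusted p under 0.05 for 7, 2 positive and 5 negative, beside 15.7% of all genes (6.13% positive and 9.52% negative). Il15 had the smallest p: its difference was 0.22 ± 0.14 in marrow (7.18 and 7.14 against 7.51 and 7.26) and -0.49 ± 0.14 in liver, an interaction of -0.71 ± 0.20 (adjusted p = 0.20, limma). Ccr3 had the largest, -0.98 ± 0.41 (adjusted p = 0.30, limma). The median interaction was -0.10, beside -0.04 over all genes.

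The 44 members below the floor ranged from 2.49 to 5.17 over all arrays. Among them were the T helper cytokines Il2, Il3, Il5, Il10, Il13, Il17a and Il21 and the chemokines Ccl1, Ccl7, Ccl11, Ccl12, Ccl20, Cxcl3, Cxcl5, Cxcl11 and Cxcl15. No detection calls were used, so these levels do not show absence. Cxcl5, a neutrophil attractant made by platelets and epithelium and singled out after its values were seen, was the member that came nearest to a genotype difference in marrow. It stood at 4.75 and 4.45 in wild-type and at 3.56 and 3.82 in knockout marrow, with no overlap, and at 3.39 to 3.57 on all liver arrays. With no filter its difference of -0.91 ± 0.13 passed (adjusted p = 0.037, limma), the 1 member called beside 0.253% of all 18194 genes (0.0220% higher and 0.231% lower). The megakaryocyte and platelet list moved with it: 8 of 10 tested markers fell in knockout marrow, with a median of -1.16 and list means of 9.56 and 9.21 in wild-type and 8.29 and 8.30 in knockout. Other lists fell there too. Of 11 tested stromal and bone markers 0 had a positive difference and 2 were called lower (median -0.36). Of 9 endothelial markers 0 had a positive difference and 1 was called lower (median -0.15). The part of these lists in the Cxcl5 difference was not tested.

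Other members below the floor differed between the tissues when no filter was set, and they too are named after their values were seen. Il6, the acute phase cytokine, stood at 4.48 and 4.48 in wild-type marrow and 3.69 and 3.34 in wild-type liver. Il33, an IL-1 family alarmin, was higher in liver, at 4.09 and 3.70 against 4.77 and 4.82 (adjusted p = 0.0015, limma). So was Il22ra1, the IL-22 receptor chain of epithelia and hepatocytes, at 3.77 and 4.14 against 5.02 and 4.82, a difference of 0.97 (adjusted p = 0.00035, limma), with 0.84 in knockout arrays.

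Ligands and receptors outside the rule were read from a list. Of its 25 genes, 20 were tested, and 3 were higher and 13 lower in wild-type fetal liver, with a median of -0.66, beside 39.2% and 26.8% of all genes. Ackr3, the scavenging receptor of Cxcl12, was higher by 3.68 ± 0.15 (4.23 in marrow and 7.90 in liver, group means), while Csf3r, the G-CSF receptor of neutrophils, was lower by 3.06 ± 0.09 and Csf2ra, a chain of the GM-CSF receptor, by 2.59 ± 0.22. Of 36 tested signalling genes among 40 listed, 6 were higher and 25 lower, with a median of -0.75, and the largest differences were those of Rgs2 (-4.20 ± 0.13), a regulator of G protein signalling, Irak3 (-3.29 ± 0.15), an inhibitor of IL-1 receptor signalling, and Nfkbia (-2.76 ± 0.13), the inhibitor of NF-kappaB. In the genotype comparisons 2 genes of these lists fell, both platelet chemokines in bone marrow: Pf4 by 0.95 ± 0.13 (adjusted p = 0.024, limma) and Ppbp by 1.05 ± 0.10 (adjusted p = 0.0068, limma). The interaction passed for Ppbp (1.20 ± 0.14, adjusted p = 0.035, limma), whose difference in fetal liver was 0.15. Of the 9 relatives left out by the rule, Cxcl2, a neutrophil attractant, was higher in knockout marrow by 1.38 (adjusted p = 0.011, limma). In fetal liver 0 of the 20 and 0 of the 36 passed (limma).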

How the data were processed

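RNA of 8 pools of 2 littermates was measured on Affymetrix arrays, 2 per group. The authors deposited linear intensity values for 45101 probe sets, made with RMA per the submitters' processing notes, whose version the sources at hand do not state. They were taken to log2 here, since the deposited values were not on a log2 scale. By GEO's annotation of the platform 34958 probe sets belong to 1 gene, 932 to several and 9211 to none, and only the first were used, 1 per gene, the brightest by its mean over the 8 arrays. A gene was tested if it reached a log2 level of 5 on 2 or more arrays, which left 13136 of 18194. The number of arrays limits the precision.

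All 8 arrays entered 1 fit (limma 3.58.1 in R 4.3.3, lmFit and eBayes, two-sided) with a mean per group, and 5 contrasts were taken: genotype in each tissue, their interaction, and tissue in each genotype. P-values were adjusted by Benjamini-Hochberg over all genes tested, with a threshold of 0.05. ± gives the standard error of the fit. Tested on simulated data with 200 changed genes among 13136, the fit recovered 92.5% of 2-fold and 44.4% of 1.5-fold changes in bone marrow, and 91.6% and 47.8% in fetal liver. The simulation gave each gene 1 spread in all groups, with normal noise. In the data the median SD of tested members was 0.14 and 0.17 in fetal liver against 0.09 and 0.08 in marrow. Over all genes tested the median SD was lower, at 0.08 and 0.11 in fetal liver and 0.06 and 0.07 in marrow. The simulated recovery therefore cannot show a difference in power between the tissues. It may be too high for fetal liver, and for the members in either tissue.

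The members, their roles and all gene lists were chosen with earlier results of these data known. Named were up to 15 called members per direction and contrast, the smallest p-values up to 5 per direction, and the 3 highest mean levels per role. Cxcl5, Cxcl9, Il1rl2, Il6, Il6st, Il17re, Il22ra1, Il33 and the members named only to complete a count or list were chosen after their values were seen. Promoters came from the RefSeq table for GRCm38.p6, which matched 83 of the 110 members. Alternatives covered the filter, probe set choice, scaling, variance model, array weights, a replicate block, fitting only the groups compared, other thresholds, and leaving out each array in turn.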

Additional observations from a re-analysis of the deposited data

How the results depend on the processing

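The number of members tested moved with the filter, from 45 at a floor of 6 to 110 with no filter, and the share called moved with it. In wild-type arrays 34 of the 45 and 51 of the 110 were called between tissues, beside 7960 of 11014 and 9044 of 18194 genes. In knockout arrays 34 and 44 were called, beside 7714 and 8652 genes. The totals of members called kept within 1.5 times of the reported ones under all alternatives run. They were 33 to 51 members for wild-type arrays (reported 42) and 31 to 44 for knockout arrays (reported 39). The counts by direction moved more: in wild-type arrays 6 to 17 higher (reported 10; 6 at a floor of 6, with probe sets free of a suffix, or without marrow replicate 1, and 17 with no filter) and 27 to 37 lower (reported 32), and in knockout arrays 3 to 8 higher (reported 5; 3 with probe sets free of a suffix, and 8 with no filter or without liver replicate 2) and 27 to 37 lower (reported 34). The genotype count in bone marrow was 0 under every alternative except no filter, where it was 1 (Cxcl5), and 0 to 0 with 1 array left out, as was the interaction count. The fetal liver genotype count was 1 with a trend and robust variance model and 1 at an adjusted p under 0.1 (Il17ra in both), and 0 to 8 with 1 array left out, where 8 came without knockout replicate 2. The cause was not tested. The bone marrow genotype difference of Ccl17, -0.13, ranged from -0.28 to 0.012 with 1 array left out, and changed sign without wild-type marrow replicate 2. Of the named members called between tissues, 5 of 25 in wild-type and 1 of 20 in knockout arrays lost the call under at least 1 alternative: Il13ra1, Cxcl1, Il20, Ccl22 and Il1f5, and Ccl27a.

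Arrays with the same replicate number did not deviate together (correlations of their deviations from group means of -0.12 to -0.00078), so the numbers share only a label. With the replicate number as a block the counts of members were 0, 0 and 0 for genotype in bone marrow, in fetal liver and for the interaction, and 42 and 39 for tissue in wild-type and knockout arrays. Over all genes the block gave 45 calls for genotype in bone marrow (reported 54), 10 in fetal liver (reported 42) and 5 for the interaction (reported 12). For tissue it gave 8456 in wild-type (reported 8663) and 8159 in knockout arrays (reported 8375).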
